A study of Mus musculus with 4 samples.

Results

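The collagen gene family was examined in the transcriptomes of a mouse ovarian cancer cell line and of a derivative selected in the omentum. Members were all genes with a symbol of the form Col, number, a, number, found through the RefSeq accession of each array probe. The array held 67 such probes for 44 genes, of 56605 probes and 22911 gene symbols in all. ID8G cells are ID8 cells, a mouse ovarian cancer line of the C57BL/6 strain, that carry GFP from a retroviral vector and were sorted for it. GO2 cells descend from ID8G cells through 2 rounds of intraperitoneal growth in syngeneic female mice. After each round, GFP+ cells without the leukocyte marker CD45 were sorted out of omental tumors. Both lines therefore carry GFP, and the growth protocol gives the same serum-containing medium with insulin, transferrin and selenite for both. The sample labels, however, give omental tumor as the source of GO2, so whether its RNA was taken after culture or straight from sorted tumor cells is not settled, and a difference between the lines can also be one between these states. In all, 1 such selected line was measured, and how many animals it came from is not given in the labels. RNA of each cell line was measured on 2 Agilent 1-color arrays.

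Collagens are extracellular matrix proteins in which 3 polypeptide chains wind into a triple helix. Fibrillar collagens form the tensile fibers of stroma, network collagens form the sheets of basement membranes and related meshworks, and FACIT collagens sit on the surface of fibrils. The other classes include the beaded filaments of type VI, the anchoring fibrils of type VII, transmembrane collagens and multiplexins. The peritoneum and omentum are lined by mesothelium on a basement membrane, above a stroma of fibrillar collagen that fibroblasts deposit.

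Starting windows of 5 collagen genes are shown because they stand for the patterns described here. Col8a1, Col1a2 and Col3a1 were among the genes higher in GO2 cells, while Col4a1 and Col4a2 start back to back and differed by less than 2-fold. Each window runs 5′ to 3′ on the strand of its gene, from 250 bases before to 50 bases after the RefSeq start in GRCm38.p6, and the sequences are those of RefSeq. Capitals mark every CCAAT or TATAAA or GGGCGG, on either strand, so that ATTGG and CCGCCC are the same motifs read from the other strand. The windows are chr16:57754688-57754987 (minus strand) for Col8a1, chr6:4505368-4505667 (plus) for Col1a2, chr1:45311288-45311587 (plus) for Col3a1, chr8:11312777-11313076 (minus) for Col4a1 and chr8:11312555-11312854 (plus) for Col4a2.
Col8a1: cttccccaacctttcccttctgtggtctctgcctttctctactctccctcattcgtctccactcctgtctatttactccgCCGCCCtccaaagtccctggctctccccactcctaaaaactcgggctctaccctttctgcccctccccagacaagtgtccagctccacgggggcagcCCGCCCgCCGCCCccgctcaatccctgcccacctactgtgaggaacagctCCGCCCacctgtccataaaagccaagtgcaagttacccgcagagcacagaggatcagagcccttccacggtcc
Col1a2: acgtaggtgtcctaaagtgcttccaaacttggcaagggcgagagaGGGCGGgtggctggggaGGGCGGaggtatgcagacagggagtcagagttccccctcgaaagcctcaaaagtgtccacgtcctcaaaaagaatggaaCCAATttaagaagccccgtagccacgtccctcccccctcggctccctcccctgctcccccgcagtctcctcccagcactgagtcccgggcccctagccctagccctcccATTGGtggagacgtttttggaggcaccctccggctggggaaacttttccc
Col3a1: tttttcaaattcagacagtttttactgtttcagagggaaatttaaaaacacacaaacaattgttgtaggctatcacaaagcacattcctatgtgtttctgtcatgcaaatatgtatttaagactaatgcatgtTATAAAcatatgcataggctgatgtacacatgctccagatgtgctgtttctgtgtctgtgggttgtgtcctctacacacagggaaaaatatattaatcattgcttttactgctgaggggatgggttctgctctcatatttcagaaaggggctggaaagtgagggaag
Col4a1: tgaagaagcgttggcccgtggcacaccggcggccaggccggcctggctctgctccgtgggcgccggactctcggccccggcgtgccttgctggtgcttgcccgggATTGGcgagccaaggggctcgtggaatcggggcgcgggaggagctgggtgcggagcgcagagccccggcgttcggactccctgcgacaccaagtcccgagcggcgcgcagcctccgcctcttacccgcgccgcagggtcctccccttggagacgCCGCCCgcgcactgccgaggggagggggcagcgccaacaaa
Col4a2: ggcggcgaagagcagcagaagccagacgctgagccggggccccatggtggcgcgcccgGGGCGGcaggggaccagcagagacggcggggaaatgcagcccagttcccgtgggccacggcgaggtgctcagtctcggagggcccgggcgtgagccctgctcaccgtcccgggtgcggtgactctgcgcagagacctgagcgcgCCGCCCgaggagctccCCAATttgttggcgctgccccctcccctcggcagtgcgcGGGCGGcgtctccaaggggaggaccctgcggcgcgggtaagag
The Col4a1 and Col4a2 windows share 78 bases, which each shows on its own strand. The Col8a1 window held 4 matches, all of them GGGCGG, and the Col3a1 window held 1 match, a TATAAA.

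Of the 44 collagens, 13 were higher in GO2 cells and 0 were lower, among them chains of types I, II, III, V, VI and VIII. A further 9 were tested without meeting the rule for a call, and 22 were not tested because no cell line gave signal well above background on both of its arrays. To count as higher or lower, a gene had to differ by at least 2-fold (1 on the log2 scale) with a limma adjusted p under 0.05. At an unadjusted limma p under 0.05 and 2-fold the counts of collagens were again 13 and 0, and without the limit on size they were 16 and 3. The shares of all genes at an unadjusted p are not given here, so these counts have no baseline. By the rule with adjusted p and 2-fold, 5.98% of all 13215 genes tested were higher and 3.94% were lower. Of all 22911 symbols on the array 3.45% were higher. At the level of probes, 15 of the 25 collagen probes tested were higher and 0 were lower, where 4.5% and 3.34% of all tested probes were. A gene that passed the filter on signal only through its GO2 arrays had to differ, and 6 of the 13 were of that kind, as were 2.24% of all tested genes. Of the 15 collagens well above background on all 4 arrays, 7 were higher and 0 were lower, against 3.65% and 2.91% of all genes with such signal.

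Levels are log2 intensities from which the 75th percentile of their own array was subtracted, so that 0 lies at that percentile, and values of different probes are not compared with each other. Where a probe was well above background on neither ID8G array, the difference is given as a lower bound, taken from the lowest signal on those arrays that still stood well above background. A p-value printed beside a bound belongs to the fitted difference, which uses the ID8G signals at background, and not to the bound. Both GO2 arrays lay above both ID8G arrays for 16 of the 22 tested collagens, where this held for 39.3% of all genes tested. Of these 16, 6 passed the filter on signal only through their GO2 arrays and so had to lie in this order. Both GO2 arrays lay below both ID8G arrays for 4, all of type IV, where that order held for 39.1% of all genes tested. The arrays overlapped for Col9a2 and Col17a1. In bulk RNA, fewer expressing cells and less RNA per cell cannot be told apart.

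**Figure D1:**
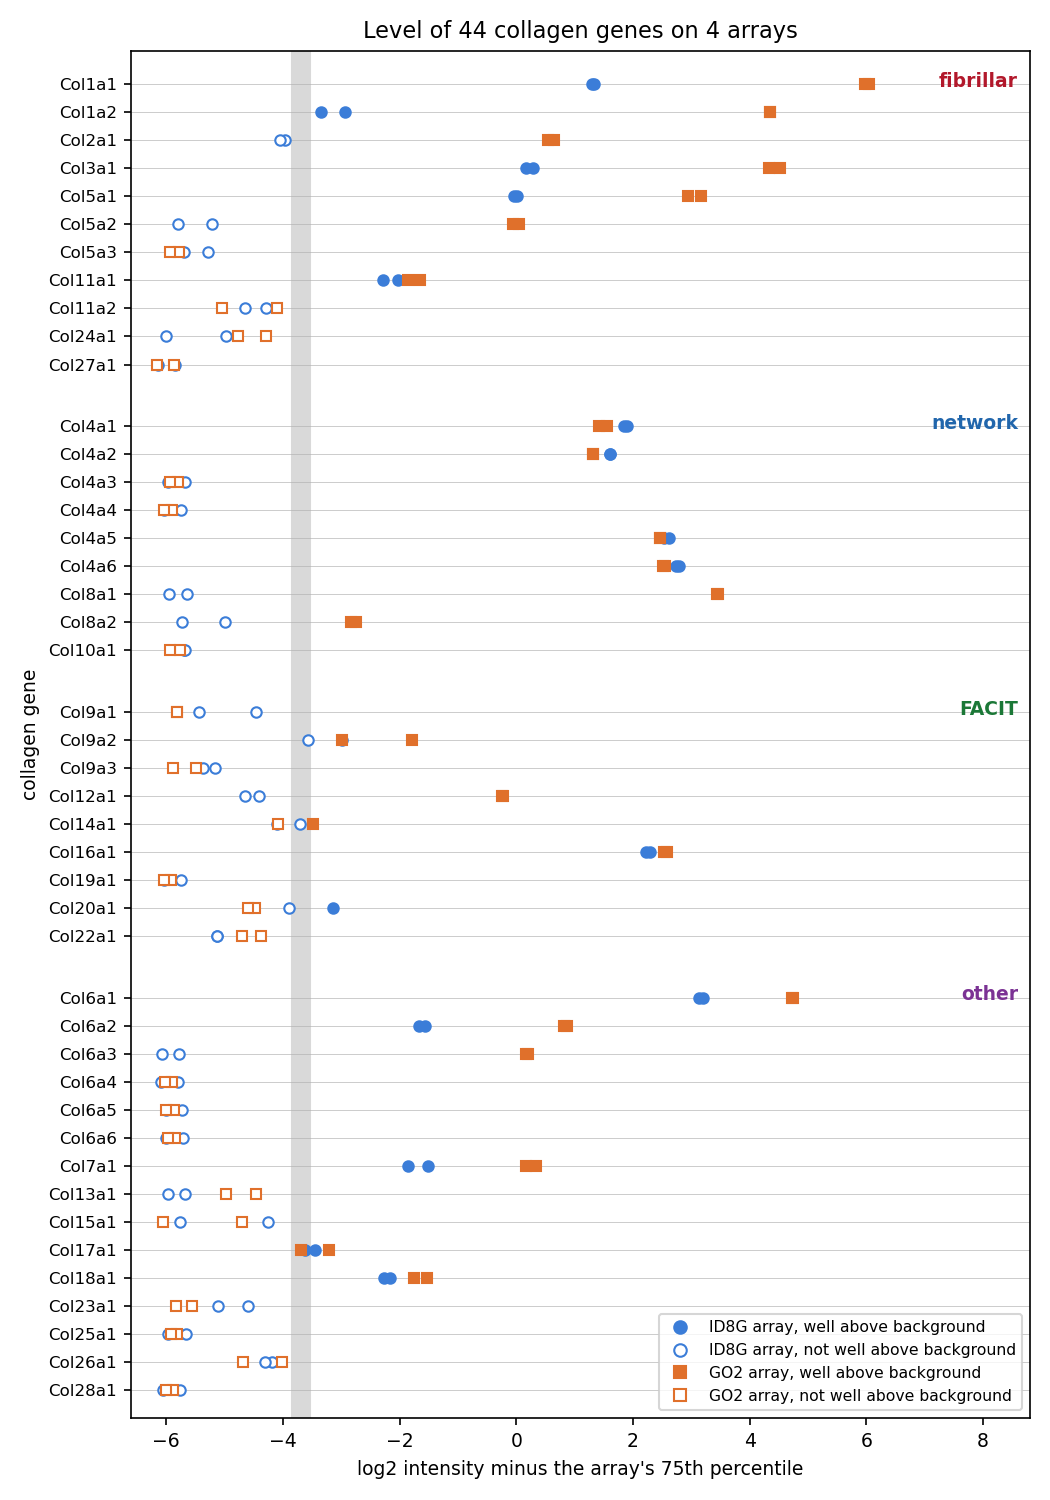
Level of the 44 collagen genes on each of the 4 arrays (log2 intensity relative to its array's 75th percentile), grouped by class, with open symbols where the probe was not well above background and a gray band for the lowest signals that were. For 16 of the 22 tested genes both GO2 arrays lie above both ID8G arrays, and the 4 type IV genes have the opposite order. Of the 16, 6 passed the filter on signal only through their GO2 arrays and so had to lie in this order.

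Of the 11 fibrillar collagens, 7 were tested and 6 were higher in GO2 cells. Col1a1 and Col1a2 encode the chains of type I collagen, the main fiber of stroma and scar. ID8G cells gave Col1a1 levels of 1.30 and 1.33, and GO2 cells gave 5.98 and 6.04. This difference of 4.69 (standard error 0.05, limma adjusted p = 0.000182) is 25.8-fold. Col1a1 had 2 probes of 10 spots each on every array, whose spots varied with an SD of 0.039 to 0.076 on the log2 scale, and the second probe gave a difference of 4.73. Col1a2 rose from -2.93 and -3.35 to 4.35 and 4.34, that is, by 7.49 (standard error 0.15, limma adjusted p = 0.000207) or 180-fold, with signal well above background on all 4 arrays. Its ID8G levels lay close to the lowest signals well above background on those arrays, -3.53 and -3.82. With normexp background correction the Col1a2 difference was 6.26, or 76.6-fold. In both genes the gap between the cell lines was many times the spread between arrays of one line.

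Col3a1, the type III chain that co-assembles with type I in compliant tissue, was at 0.28 and 0.17 in ID8G cells and at 4.52 and 4.34 in GO2 cells, higher by 4.20 (standard error 0.09) or 18.4-fold. Col5a1 and Col5a2 encode type V collagen, which starts and limits the growth of type I fibrils. Col5a1 went from -0.05 and 0.01 to 2.95 and 3.16, a difference of 3.08 (standard error 0.09) or 8.43-fold. Col5a2 was at background in ID8G cells and reached -0.06 and 0.05 in GO2 cells, at least 12.8-fold higher. Col2a1, the type II chain known from cartilage, was likewise not well above background in ID8G cells and stood at 0.65 and 0.54 in GO2 cells, at least 19.3-fold higher. Each of these 4 genes had non-overlapping groups and a limma adjusted p of at most 0.0005. Both GO2 arrays lay above both ID8G arrays for 39.3% of all tested genes. Col5a2 and Col2a1 passed the filter on signal only through GO2 cells and so had to differ. For these genes neither the non-overlap nor the p-value adds support. Normexp correction, which raises dim signals, gave fitted values under these bounds, 7.82-fold for Col5a2 and 9.11-fold for Col2a1, so the bounds hold for the background correction used here.

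Col11a1, a chain of the cartilage fibril collagen XI, differed least among the tested fibrillar genes. Its level was -2.28 and -2.04 in ID8G cells and -1.85 and -1.65 in GO2 cells. The difference of 0.40 had a 95% interval of 0.08 to 0.73 and a limma adjusted p of 0.0649. The remaining fibrillar genes Col5a3, Col11a2, Col24a1 and Col27a1 were well above background on no array.

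The 9 network collagens split by type. Type VIII, a short-chain collagen of the matrix under endothelium and in vessel walls, was higher in GO2 cells. Col8a1 was not well above background in ID8G cells (-5.65 and -5.95) and stood at 3.44 and 3.46 on the GO2 arrays, at least 140-fold higher (limma adjusted p = 0.000182), and 77.7-fold with normexp. Col8a2 was far closer to background, at -2.83 and -2.74 in GO2 cells. It passed with a fitted difference of 2.57 (limma adjusted p = 0.00505), but its bound was 1.86-fold, under the 2-fold rule. Col8a2 did not pass when levels were floored at the lowest signal above background or when the background was corrected with normexp.

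Type IV, the collagen of basement membranes, was measured on all 4 arrays for 4 of its genes, and none passed the 2-fold threshold. Col4a1 was at 1.89 and 1.85 in ID8G cells and at 1.42 and 1.56 in GO2 cells, a difference of -0.37 (95% interval -0.57 to -0.18, limma adjusted p = 0.0225). Col4a2 was at 1.60 and 1.61 in ID8G cells against 1.32 and 1.31, a difference of -0.29 (-0.42 to -0.15, adjusted p = 0.0176). For Col4a6 the ID8G values of 2.74 and 2.78 stood against 2.54 and 2.52 in GO2 cells, a difference of -0.23 (-0.38 to -0.09, adjusted p = 0.0355). Col4a5 gave 2.54 and 2.61 against 2.47 and 2.46, a difference of -0.11 (-0.27 to 0.04, adjusted p = 0.191), and -0.15 with its second probe. All 4 type IV differences kept a negative sign under every scaling tried, with values of -0.58, -0.50, -0.44 and -0.32 for Col4a1, Col4a2, Col4a6 and Col4a5 on the scale of the spike-ins, where the median of all genes was -0.21. Col4a3, Col4a4 and Col10a1, a collagen of hypertrophic cartilage, were well above background on no array.

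Of the 9 FACIT collagens, 3 were tested and 1 was higher. Col12a1, a collagen found on the fibrils of tendon, ligament and fascia, was at background in ID8G cells and at -0.22 and -0.25 in GO2 cells, at least 10.9-fold higher (limma adjusted p = 0.00023), and 7.34-fold with normexp. Its second probe was also at background in ID8G cells, and its bound of 1.84-fold lies below the threshold. Col16a1 was at 2.22 and 2.29 in ID8G cells and at 2.52 and 2.59 in GO2 cells, and its difference of 0.30 (95% interval 0.14 to 0.46) stayed below the threshold. The arrays overlapped for Col9a2, with values of -3.57 and -2.98 against -2.99 and -1.79 and an interval from -0.40 to 2.17. Of the 6 untested FACIT genes, Col14a1 was well above background on 1 GO2 array, Col20a1 on 1 ID8G array, and Col9a1, Col9a3, Col19a1 and Col22a1 on none.

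All 3 tested genes of the beaded-filament collagen VI, which links the fibrillar matrix to cells and basement membranes, were higher in GO2 cells. Col6a1 was already well above background in ID8G cells, at 3.13 and 3.20, and reached 4.75 and 4.73, higher by 1.57 (standard error 0.05, limma adjusted p = 0.000414) or 2.98-fold. Col6a2 rose from -1.66 and -1.56 to 0.81 and 0.86, by 2.45 (standard error 0.06, adjusted p = 0.000269) or 5.46-fold. Col6a3 was not well above background in ID8G cells and was at 0.20 and 0.17 in GO2 cells, at least 14.6-fold higher (3.52 on the log2 scale with normexp), although its second probe was well above background on no array. Col6a4, Col6a5 and Col6a6 were at background throughout.

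Col7a1, the anchoring fibril collagen that ties epithelial basement membranes to the stroma, rose from -1.52 and -1.85 to 0.16 and 0.34, by 1.93 (standard error 0.14, limma adjusted p = 0.00211) or 3.82-fold. Col18a1, a basement membrane multiplexin and the precursor of endostatin, was at -2.27 and -2.17 in ID8G cells and at -1.53 and -1.75 in GO2 cells. Its difference of 0.57 (95% interval 0.30 to 0.85, adjusted p = 0.0181) was below 2-fold. Col17a1, a transmembrane collagen of hemidesmosomes, overlapped between the cell lines, with -3.45 and -3.62 against -3.21 and -3.69. Its difference of 0.09 turned to -0.12 on the scale of the spike-ins. The other transmembrane collagens Col13a1, Col23a1 and Col25a1, the multiplexin Col15a1, and Col26a1 and Col28a1 were well above background on no array.

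**Figure D2:**
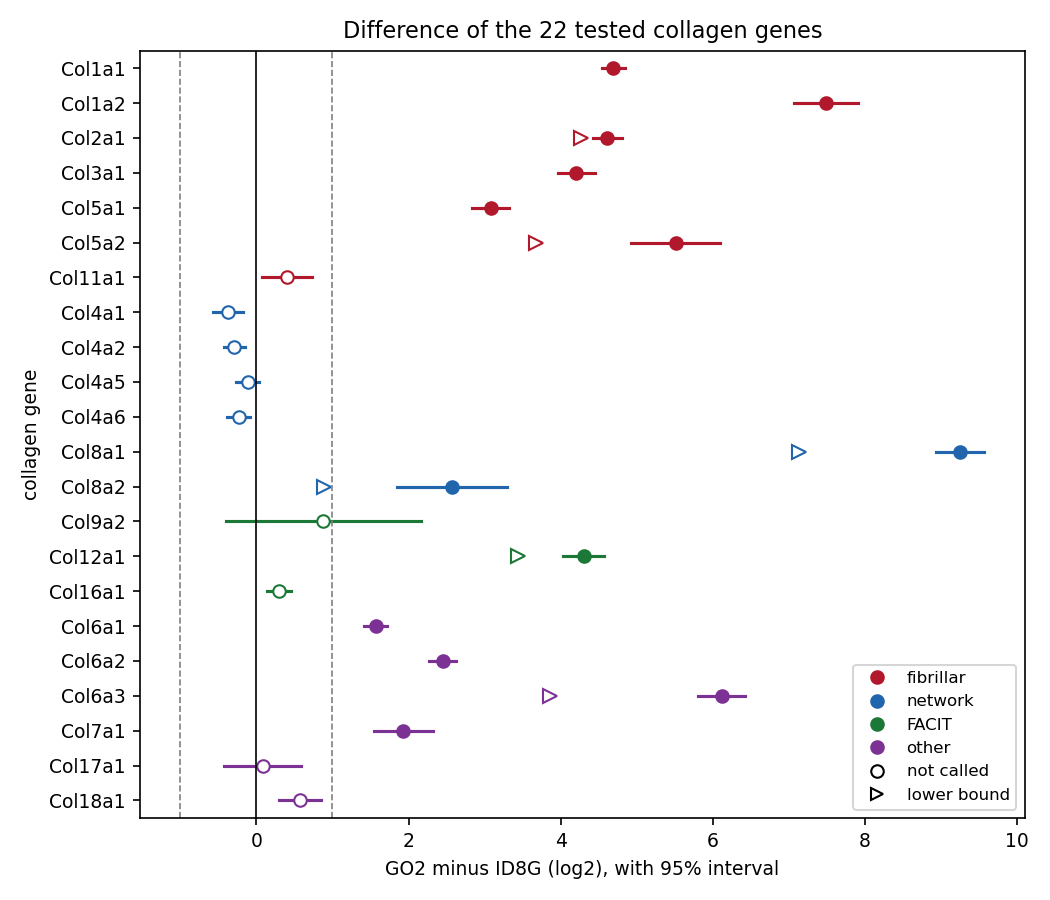
GO2 minus ID8G difference in log2 level for the 22 tested collagen genes, by class, with 95% limma intervals, open circles for genes below the rule for a call, and triangles at the lower bound of the 6 genes at background in ID8G cells. The 13 higher genes include 6 of 7 tested fibrillar genes, and the 4 type IV genes lie between -0.37 and -0.11.

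By class, the median difference of tested genes was 4.61 for fibrillar collagens (4.20 with genes at background in ID8G set to their bound), -0.17 for network, 0.88 for FACIT and 1.75 for the others. Over all 22 tested collagens it was 2.19, or 1.75 with bounds, where the median of all 13215 genes was -0.00 and their quartiles were -0.20 and 0.21. These medians hold for genes that passed the filter on signal and do not describe the 22 untested ones. The number of collagens well above background was 16 on each ID8G array and 22 and 23 on the GO2 arrays. The FACIT median rests on 3 genes and is the value of Col9a2, whose own arrays overlapped.

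**Figure D3:**
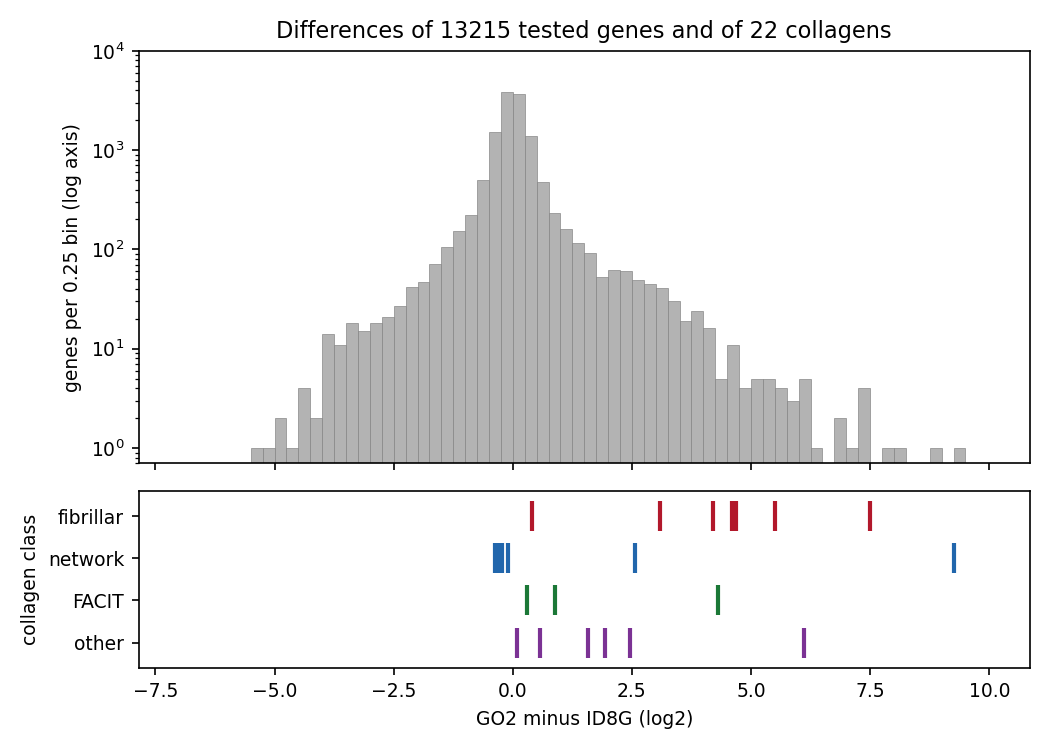
Distribution of the GO2 minus ID8G difference in log2 level over all 13215 tested genes, on a logarithmic count axis, with a tick for each tested collagen by class in the lower panel. The quartiles of all genes are -0.20 and 0.21, and the 13 higher collagens lie to the right of 1. Genes at background in ID8G are placed at their fitted difference.

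Many collagens assemble from chains of different genes, and the ratio of partner chains within an array is untouched by any scaling that subtracts 1 value per array. It can be followed for 4 pairs measured on all 4 arrays. Relative to its ID8G mean, the log2 ratio of Col1a2 to Col1a1 was 0.22 and -0.22 in ID8G cells against 2.83 and 2.76 in GO2 cells. That of Col6a2 to Col6a1 was -0.02 and 0.02 against 0.84 and 0.91. In both pairs the second chain gained more than the first, beyond the spread of the ID8G arrays. The sizes depend on the background correction, since with normexp the shifts were 1.65 for Col1a2 over Col1a1 and 0.53 for Col6a2 over Col6a1. The ratio of Col4a2 to Col4a1 moved by 0.09 and that of Col4a6 to Col4a5 by -0.12. These shifts are descriptions of 2 arrays against 2 and were given no test.

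**Figure D4:**
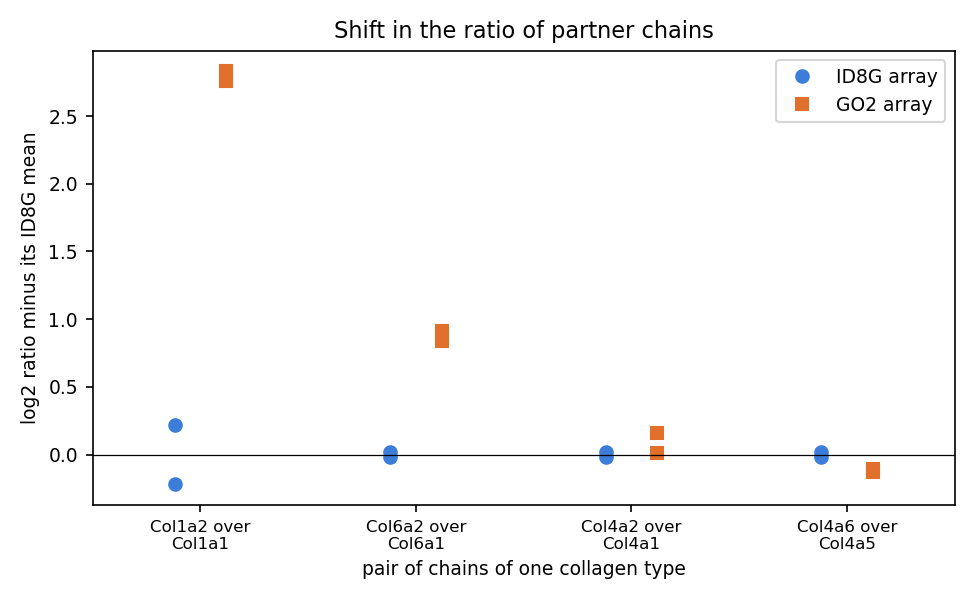
Log2 ratio of partner chains on each array, minus its mean over the 2 ID8G arrays, for the 4 pairs measured on all 4 arrays. The Col1a2 to Col1a1 ratio is 2.80 higher in GO2 cells and the Col6a2 to Col6a1 ratio 0.87 higher, and both type IV ratios move by at most 0.12.

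Several collagens lie next to each other in the genome, as neighbors among protein-coding genes in the RefSeq annotation. Col3a1 and Col5a2 on chromosome 1 were both higher in GO2 cells, as were Col6a1 and Col6a2 on chromosome 10. Neither gene passed in the pairs Col4a1 and Col4a2 on chromosome 8 and Col4a5 and Col4a6 on chromosome X. The neighbors Col4a3 with Col4a4, Col9a1 with Col19a1, and Col6a4, Col6a5 and Col6a6 in a row were not tested.

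A starting window like those shown was found for 35 of the 44 collagens. GGGCGG, the core of the box that Sp1 factors are known to bind, was in 22 of the 35 (62.9%), where 38.2% of the windows of all 27025 genes held it. CCAAT was in 13 (37.1%, against 41.1% of all genes) and TATAAA in 5 (14.3%, against 15.7%). Median GC content was 60.0% in the collagen windows and 52.8% in all, and GGGCGG is itself made of G and C. Among the 9 higher genes with a window, 6 held GGGCGG, 2 CCAAT and 1 TATAAA. Among the 9 tested genes below the threshold, 8 held GGGCGG, 7 CCAAT and 1 TATAAA, and among the 17 untested genes the counts were 8, 4 and 3. These matches are letters in a window and carry no statement about binding.

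Genes that fold and secrete procollagen were next examined. Of 20 genes, 19 were tested, 5 were higher in GO2 cells and 0 were lower, with a median difference of 0.44. For this and each later list, 5.98% of all tested genes were higher and 3.94% were lower. Listed genes given with a bound passed the filter on signal through 1 cell line only, and so had to differ. Serpinh1, the collagen chaperone HSP47, was at 4.71 and 4.81 in ID8G cells and at 5.78 and 5.82 in GO2 cells, higher by 1.04 (limma adjusted p = 0.00128). Serpinh1 thus lay at the threshold, and it was below it on the spike-in scale (0.84), without ID8G replicate 1 (0.99) and with limma treat. P4ha2, a catalytic subunit of prolyl 4-hydroxylase, was higher by 1.91, and the prolyl 3-hydroxylase genes P3h2 and P3h3 by at least 2.10 and by 1.69. Creb3l1, a membrane-bound transcription factor that acts on type I collagen genes, was higher by 3.46 (limma adjusted p = 0.000208). Values below the threshold were 0.38 for Sparc, a collagen-binding matricellular protein, and 0.66 for Fkbp10, a prolyl isomerase and collagen chaperone.

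Of 13 genes for propeptide cleavage and crosslinking, 12 were tested, 4 were higher and 0 were lower, with a median of 0.64. Lox, the lysyl oxidase that starts crosslinking, went from 0.59 and 0.51 to 3.75 and 3.71, by 3.18 (standard error 0.06). Pcolce2, an enhancer of procollagen cleavage, was higher by 2.90 (standard error 0.28). Adamts2, the procollagen N-proteinase, was at 3.01 and 3.02 in GO2 cells, while its ID8G arrays gave -5.74 and -3.16 and 1 of them was well above background. Its fitted difference of 7.46 (standard error 0.90, limma adjusted p = 0.00753) therefore has no firm size, and it was 6.17 without ID8G replicate 1, 8.75 without ID8G replicate 2 and 6.36 with the floor. Adamts3, a related proteinase, passed with a fitted 1.15, but its bound was 0.27, under the 2-fold rule. The Adamts3 call was lost with the floor, normexp, the spike-in scale, limma treat and no filter on dim probes, and without ID8G replicate 1 (0.78), GO2 replicate 1 or GO2 replicate 2. Bmp1, the C-proteinase, differed by 0.16 and Pcolce by 0.65, neither past the threshold.

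Among 10 collagen receptor genes, 7 were tested, 2 were higher and 0 were lower, with a median of 0.40. Ddr2, a receptor tyrosine kinase for fibrillar collagen, was at background in ID8G cells (-5.85 and -6.12) and at 1.92 and 2.02 in GO2 cells, higher by at least 5.65 on the log2 scale (limma adjusted p = 0.000182). Itga11, the alpha chain of a fibrillar collagen integrin, rose from -1.98 and -1.99 to 1.25 and 1.21. Its partner Itgb1 differed by -0.30 and Ddr1, the related kinase, by 0.26, both below the threshold. Of 22 genes for proteins with collagen-like stretches or trimers, 10 were tested, 5 were higher and 0 were lower, and 12 were well above background on no array. Cthrc1, a secreted protein with a short collagen repeat, was higher by 5.53 (4.65 with normexp) and Emilin1, an elastic fiber glycoprotein, by at least 2.75. The others were C1qtnf6 (2.16), C1qtnf3 (at least 1.37) and Scara3 (at least 0.60, under the 2-fold rule). The Scara3 call was lost with the floor (0.60) and with normexp (0.97), and that of C1qtnf3 with normexp (0.98). C1qtnf1 lay at the threshold, with differences of -1.03 and -0.98 from its 2 probes.

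Markers of cell types that produce collagen were read on the same arrays. Beside their counts again stand 5.98% higher and 3.94% lower among all tested genes. Of 16 fibroblast markers other than collagens, 8 were tested and 4 were higher in GO2 cells, namely Pdgfra (3.70, or 2.75 with normexp), Pdgfrb (at least 1.27), Fn1 (1.55) and Fbln2 (1.32). The other 8, Lum, Thy1, Fap, Postn, Dpt, Pi16, Mfap5 and Tcf21, were well above background on no array, and Dcn differed by -0.63. The summed linear level of the list, in units of the 75th percentile, was 357 to 364 in ID8G cells and 427 to 430 in GO2 cells. That sum rests mainly on S100a4 (7.49 and 7.43 against 7.30 and 7.22) and Vim (6.44 and 6.45 against 7.19 and 7.20), neither past the threshold. Of 8 smooth muscle and pericyte markers, 4 were tested and 2 were higher, Tagln (1.46, lost with limma treat) and Cnn1 (at least 1.37), while Myh11, Des and Rgs5 were at background throughout. Acta2 is counted by its brightest probe, which gave 0.30, but its other 2 probes gave 2.71 and 5.64 and met the rule as higher. The summed level of the list was 53.7 to 55.2 in ID8G cells and 66.5 to 68.3 in GO2 cells. The sum rests mainly on the Acta2 probe that gave 0.30 and on Mcam (0.25), neither past the threshold. The part of these markers in the collagen values was not tested.

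The epithelial markers Krt8, Krt18 and Krt19 and the mesothelial markers Wt1 and Msln were well above background on all 4 arrays, while Epcam and Krt7 were on none. In GO2 cells Krt19 fell by 1.65 on the log2 scale, from 7.40 and 7.37 to 5.72 and 5.75 (limma adjusted p = 0.00034), while Krt18 gave -0.81, which passed as lower on the spike-in scale (-1.02). Krt8 (-0.55) and Cdh1 (-0.34) were below the threshold. Of the 6 epithelial genes, 4 were tested, 0 were higher and 1, Krt19, was lower. Their summed level was 543 to 561 in ID8G cells and 284 to 285 in GO2 cells, and it rests mainly on Krt18, Krt19 and Krt8. Of the mesothelial markers, 6 were tested, Upk3b was higher (1.08) and Msln stood at -0.82, with a summed level of 119 to 129 against 106 to 109. On the spike-in scale the count turned to 0 higher and 1 lower, since Upk3b gave 0.87 and Msln -1.03, and limma treat called neither. Of 7 macrophage and leukocyte markers 4 were tested and 0 passed. These were Itgam, Csf1r, Cd3e and Cd68, each well above background on all 4 arrays. Itgam was at 4.18 and 4.39 in ID8G cells and at 4.13 and 4.17 in GO2 cells. The summed level of the list was 22.7 to 25.6 against 23.0 to 23.2, and Ptprc, Adgre1 and Lyz2 were well above background on no array. For the endothelial list the sums were 0.159 to 0.198 and 0.178 to 0.207, with Cdh5, Kdr, Tek and Vwf at background. Pecam1 was well above background on all 4 arrays and differed by 0.08. Of 5 adipocyte markers, Plin1 and Adipoq were at background and Fabp4 was lower in GO2 cells by at least 2.65. Lep was well above background on all 4 arrays and differed by -0.04, and Cidec was so on 1 GO2 array.

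The number of arrays limits the precision of these values. With 2 arrays a cell line, a two-sided exact permutation test of 1 gene cannot go below 0.333, and the adjusted p-values draw on limma's shared estimate of the variance over all probes. The labels do not say that arrays of one line came from separate cultures, so these p-values measure the spread between the samples, which may be technical. All 4 arrays lay on 1 slide of 1 scan, with ID8G in the first row and GO2 in the second, so position on the slide and cell line cannot be told apart.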

How the data were processed

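Cy3-labeled cRNA of 2 ID8G and 2 GO2 samples was hybridized to SurePrint G3 Mouse GE arrays. Linear spot intensity was deposited by the authors as Feature Extraction 11.5.1.1 wrote it, with background correction but no scaling between arrays. A second deposited table holds log2 values, which match log2 intensities scaled to the array's 75th percentile and then centered on each probe's median over the 4 arrays. That table served for 1 alternative, and 0 of its columns were left unused.

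Spots marked as outliers (132 to 195 an array) were left out, spots of a probe were averaged, and each array's 75th percentile (intensities of 627.2 to 675.1) was subtracted on the log2 scale. Of 56605 probes, 27502 to 28841 an array were well above background and 0 were saturated. Symbols came from RefSeq accessions through a GRCm38.p6 table, which named 32994 probes (58.3%). The array's own genome build is not used here. The fit took the 28368 probes that were well above background on each array of ID8G, of GO2 or of both lines, used limma 3.58.1 (R 4.3.3) with a term for cell line alone, and adjusted p by Benjamini-Hochberg over all of them. A gene is represented by its tested probe with the highest mean level. Bounds use, on each array, the higher of the lowest signal well above background and the probe's own signal. Figures were drawn with matplotlib 3.10.9 in python 3.11.15. The procedure was tested on simulated data.

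The members, classes and gene lists were chosen with earlier results of these data known. All collagens are accounted for. From other lists, at most the 3 genes with the highest level and the 3 with the largest difference among the tested are named, plus genes that complete a count of 5 or fewer or mark a cell type, which were chosen after their values were seen. Replicate numbers are shared between the cell lines, and same-numbered arrays also share a column of the slide. The samples were treated as unpaired. Deviations of same-numbered arrays correlated at 0.0273, which does not settle whether the samples were prepared in pairs. Replicate arrays correlated at 0.997 in each line. Alternatives were other filters on dim probes, other scalings, a signal floor, normexp correction (on median pixels, offset 50), an intensity trend, limma treat, the methods' t-test, a replicate block, the deposited table, outlier spots kept, the mean over probes, and each array left out. The slide as a block could not be fitted because there is 1 slide.

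One marker gene is not reported here and was left out of its list.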

Additional observations from a re-analysis of the deposited data

How the results depend on the processing

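The count of 13 higher collagens held under other scalings, the deposited values, limma treat, an intensity trend and with any 1 array left out, and it was 12 with a floor or normexp, which lost Col8a2. It was 7 where signal was required on all 4 arrays, since fewer genes were tested. By the methods' t-test after Benjamini-Hochberg adjustment it was 0, as were the counts of receptor, folding, cleavage and collagen-like genes. Before adjustment, 12 collagens had p below 0.05 in that t-test and 2-fold, a count with no share of all genes beside it. With replicate number as a block the count was again 13, and the block changed no list count of collagen-related genes. Single calls that were lost elsewhere are given beside Serpinh1, Adamts3, Scara3, C1qtnf3, Tagln and Upk3b. With normexp, Ddr2 (5.12), Emilin1 (2.39), P3h2 (1.42), Cnn1 (1.16) and Fabp4 (-1.65) kept their calls at sizes under their bounds. No setting called a collagen lower.

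Class medians moved with the genes admitted. With no filter on dim probes they were 3.08 (fibrillar), -0.11 (network), 0.12 (FACIT), -0.026 (others, a reversed sign) and 0.034 (all 44). With signal on all 4 arrays they were 4.20, -0.26, 0.30, 1.57 and 0.57. Higher genes then numbered 1 among receptors, 2 in cleavage and 2 among collagen-like proteins, where 3.65% of all genes with such signal were higher. On the spike-in scale network was -0.38, others 1.55 and all 1.98, and median centering gave 2.16 for all. The floor gave 4.20 for fibrillar and 1.75 for all, and normexp 3.19 for fibrillar, 1.57 for others and for all, and 3 higher collagen-like genes. C1qtnf1 counted as 1 lower collagen-like gene on the spike-in scale, with median centering and with the mean over probes. Leaving out 1 array, the medians ranged from 1.69 to 1.82 for others, from 0.28 (without GO2 2) to 1.48 (without GO2 1) for FACIT and from 2.13 to 2.25 for all. Apart from construction, the cause of these shifts was not tested. Some gene values passed the threshold in an alternative but not in the fit reported above, as given for C1qtnf1, Krt18 and Msln. Adamts14, at 0.95 in that fit, came to 1.03 without GO2 replicate 1. Dim ID8G signal limits 6 of the 13 differences to bounds.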
